A study of Homo sapiens with 6 samples.

Results

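The glutathione peroxidases are a family of 8 human genes, GPX1 to GPX8, and their levels are described here in T47D libraries labelled MI-503 and DMSO. The members were taken by gene symbol, 8 of the 61279 genes to which the deposited transcripts were assigned. The family was selected on the measured reads of GPX1, which had none in the libraries labelled MI-503, so the contrast of GPX1 between the labels is given as a description and was not tested. T47D is a cell line from a breast cancer that expresses hormone receptors. Cells were exposed for 24 hours to 4 μmol/L MI-503, an inhibitor of the contact between menin and the histone methyltransferase MLL1, or to the solvent DMSO. Total RNA was sequenced in 3 libraries labelled MI-503 and 3 labelled DMSO, each numbered as a biological replicate of this 1 cell line, and all 6 were from cells grown in the same serum-containing medium. The comparison asked which transcripts differed after MLL1 inhibition. For this family it asked whether other members were higher where GPX1 had no reads.

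Glutathione peroxidases reduce peroxides to water or alcohols, with glutathione as the usual electron donor. Most of them carry selenocysteine at the active site, which the ribosome inserts at a TGA codon that would otherwise end translation, and the remaining members carry cysteine there. GPX1 is the main cytosolic enzyme and is also found in mitochondria, GPX4 reduces lipid hydroperoxides within membranes and restrains ferroptosis, an iron-dependent form of cell death, and GPX7 and GPX8 work in the endoplasmic reticulum beside the protein disulfide isomerases.

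The libraries held 17404736 to 22168525 estimated reads, and mitochondrial genes took 2.84% to 5.34% of them with the MI-503 label and 1.38% to 7.18% with the DMSO label. Cell type markers went against the DMSO label. ESR1, the estrogen receptor gene, averaged 248 ± 43.6 CPM (reads scaled to library size with TMM factors) with the MI-503 label and 0.0645 ± 0.112 CPM with the DMSO label (SD, n = 3 each), and PGR, the progesterone receptor gene, averaged 1386 ± 132 and 0.328 ± 0.253 CPM. KLK3, which encodes prostate-specific antigen, had no reads with the MI-503 label and averaged 3708 ± 47.9 CPM with the DMSO label. The summed level of 15 luminal breast markers was 14763 to 21246 CPM with the MI-503 label and 1578 to 1899 CPM with the DMSO label, while the sum of 12 prostate markers was 160.5 to 165 CPM and 7028 to 8933 CPM. The sum of 5 mesenchymal markers was 214 to 319 and 490 to 841 CPM. Sums of 4 basal and of 4 blood cell markers stayed between 0 and 4.84 CPM in every library, with KRT5 and KRT17 and the blood cell genes PTPRC and CD3E without reads in all 6. An effect of MI-503 and a difference between the 2 groups of libraries therefore cannot be told apart in any value below, and "higher" and "lower" refer to the labels. MEN1, which encodes menin, averaged 142 ± 12.2 CPM with the MI-503 label and 58.7 ± 14.5 CPM with the DMSO label, and KMT2A, which encodes MLL1, averaged 103 ± 34.4 and 87.5 ± 34.2 CPM.

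The codon at the active site is what divides the family into its selenocysteine and cysteine members, and it is shown for the 5 members with reads. The windows are 45 bases of coding sequence from GENCODE release 44 (GRCh38), read 5′ to 3′ on the gene's strand, with the active-site codon in capitals.
GPX1: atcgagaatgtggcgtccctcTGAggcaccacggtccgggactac
GPX2: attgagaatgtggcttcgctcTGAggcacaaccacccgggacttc
GPX3: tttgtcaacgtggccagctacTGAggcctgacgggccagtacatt
GPX4: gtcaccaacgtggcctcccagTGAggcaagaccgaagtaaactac
GPX8: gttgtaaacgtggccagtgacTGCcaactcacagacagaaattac
GPX1, GPX2, GPX3 and GPX4 carry TGA, the selenocysteine codon, at chr3:49358132-49358134, chr14:64942607-64942609, chr5:151025469-151025471 and chr19:1105403-1105405. GPX8 carries TGC, a cysteine codon, at chr5:55161024-55161026. Of the 45 bases, GPX2 shared 37 with GPX1, GPX4 shared 28, GPX3 shared 26 and GPX8 shared 22. Of the members without reads, GPX6 has TGA in this position, GPX5 has TGT and GPX7 has TGC. In the transcript taken here for each member, the coding frame runs from 170 codons in GPX4-210 to 226 codons in GPX3-201.

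Across the family, GPX1 had reads only in the libraries labelled DMSO, GPX3 and GPX8 were far higher in those labelled MI-503, GPX4 was the member with the highest TPM (a level per transcript length) in every library, and GPX5, GPX6 and GPX7 had no reads in any. Of 8 members, 4 passed the filter on low counts, GPX1, GPX3, GPX4 and GPX8. Leaving GPX1 aside, GPX3, GPX4 and GPX8 were called higher with the MI-503 label by edgeR's quasi-likelihood test at an adjusted p under 0.05. This tally partly reflects the filter, which GPX3 passed only through the group where it is high and which removed GPX2, a member that was called lower without it. Over all 16442 genes tested, 31.7% were called higher, 31.2% lower and 62.9% in either direction, so calls were common among all genes. In bulk RNA, fewer cells that express a gene and less of its RNA in each cell cannot be told apart.

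**Figure D1:**
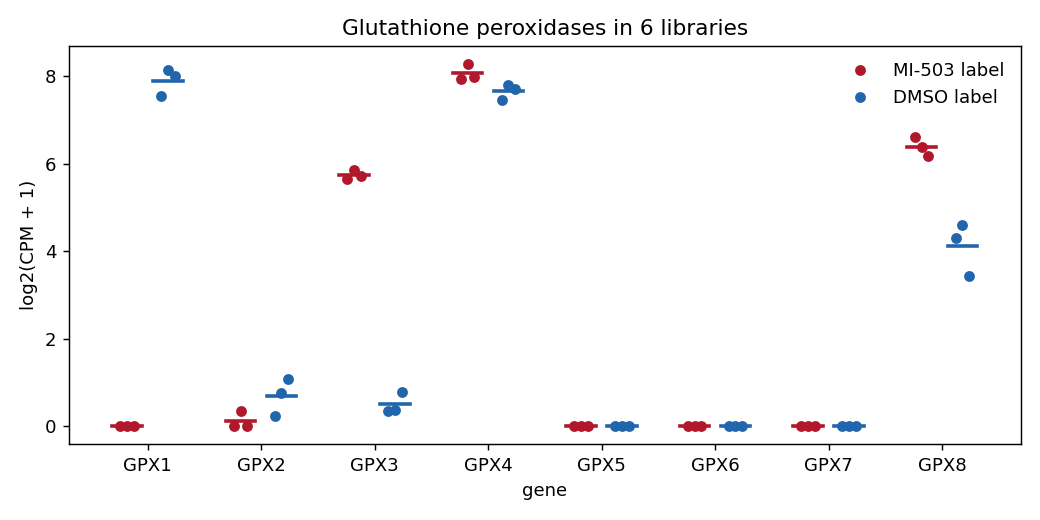
Level of each glutathione peroxidase as log2(CPM + 1) on the vertical axis, with a point for each of the 3 libraries labelled MI-503 (red, left of each pair) and the 3 labelled DMSO (blue, right), and a line at the mean of the points. GPX1 has no reads in any library labelled MI-503, GPX3 and GPX8 lie higher in all 3 of them than in any labelled DMSO, and GPX5, GPX6 and GPX7 are at 0 throughout.

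GPX1, on the minus strand of chromosome 3 (GRCh38, chr3:49357174-49358605), had 0 reads in each of the 3 libraries labelled MI-503, against 4092, 5800 and 5596 reads in replicates 1, 2 and 3 labelled DMSO. These reads came to 185, 281 and 255 CPM, a mean of 240.3 ± 49.5 CPM (SD, n = 3). On the per-length TPM scale the DMSO libraries stood at 395, 536 and 490 TPM (473 ± 72.2; SD, n = 3). No library of one label came near the other. Pooled over the libraries and set against a floor of 3 reads for the group without any (0.0531 CPM), GPX1 was at least 4505-fold lower with the MI-503 label, a bound that covers counting error only. Reads were absent from all 3 libraries labelled MI-503 for 8 of the 1823 genes that had at least 100 CPM in every library labelled DMSO, and GPX1 was 1 of the 8.

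All 5 annotated GPX1 transcripts were without reads with the MI-503 label, and 4 of them had reads with the DMSO label. GPX1-202 took 97.2%, 97.0% and 97.2% of the gene's reads in DMSO replicates 1, 2 and 3. The gene is short and has close copies. Of the 869 stretches of 31 bases in GPX1-202, 710 (81.7%) also occur in another annotated gene, namely 312 in the pseudogene GPX1P1, 139 in the pseudogene GPX1P2 and 544 in a readthrough gene of GPX1 and RHOA. GPX1P1 had no reads with the MI-503 label and 3, 0 and 1 reads with the DMSO label, and GPX1P2 had none in any library. No deposited transcript was matched to the readthrough gene, so it has no count here. Whether reads of GPX1 were assigned to a deposited transcript that was not matched to any gene was not tested. A count of 0 for GPX1 therefore holds for the 5 transcripts annotated to it.

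Of 8 protein-coding genes within 100 kb of GPX1 on chromosome 3, 7 had reads in the libraries where GPX1 had none. RHOA, a small GTPase of the cytoskeleton whose gene lies 534 bases away, averaged 325 ± 43.3 CPM with the MI-503 label and 391 ± 24.3 CPM with the DMSO label (log2 fold change −0.26, adjusted p = 0.161 by edgeR's quasi-likelihood test). The deubiquitinase gene USP4 averaged 39.6 ± 4.00 and 43.4 ± 3.16 CPM (log2 fold change −0.13, adjusted p = 0.494 by the same edgeR test). These 7 were tested, of which 3 were higher, 2 lower and 2 without a call. Over all genes tested, 31.7% were called higher, 31.2% lower and 62.9% in either direction. TCTA and C3orf62 were lower, with log2 fold changes of −1.43 and −1.28. AMT, a subunit of the glycine cleavage system, NICN1, a subunit of a tubulin polyglutamylase complex, and a gene without a symbol were higher, with log2 fold changes of 1.97, 1.16 and 1.83. The remaining neighbour, the meiotic gene IHO1, had no reads with the MI-503 label and 0, 1 and 2 reads with the DMSO label, and did not pass the filter.

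**Figure D2:**
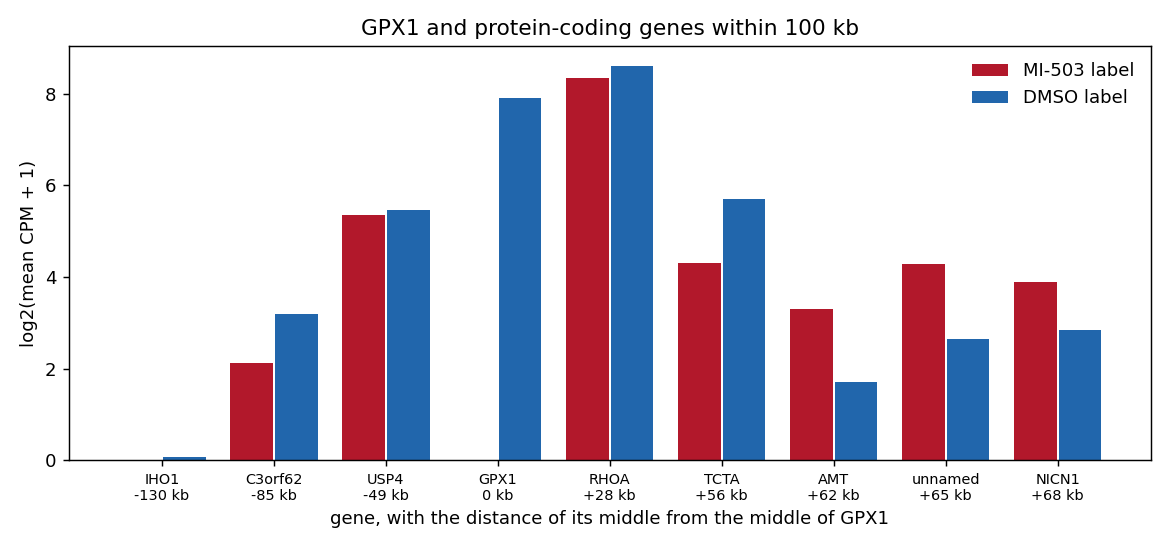
Mean level of GPX1 and of the protein-coding genes within 100 kb of it, as log2(mean CPM + 1), in order along chromosome 3 with the distance between gene middles in kb; red bars are the 3 libraries labelled MI-503 and blue bars the 3 labelled DMSO. GPX1 has no red bar, while its neighbours USP4 and RHOA have bars of nearly equal height for both labels.

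The genes whose levels over the 6 libraries lay closest to those of GPX1, by Euclidean distance of log2(CPM + 1) among protein-coding genes, are given as a description, since a small distance from GPX1 requires a level near 0 with the MI-503 label. MAOA, a mitochondrial enzyme that oxidizes monoamines, was closest (distance 0.795), with 0.390, 0.262 and 0.178 CPM with the MI-503 label and 193, 201 and 245 CPM with the DMSO label. The transporter gene ABCC4 (1.05), the prostate kallikrein gene KLK2 (1.13) and the co-receptor gene NRP1 (1.14) followed, and 1 of the 5 closest genes is not named here. KLK2 is also 1 of the 12 prostate markers whose sum is given above.

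GPX4, the phospholipid hydroperoxidase, was abundant under both labels. Its gene lies on the plus strand of chromosome 19 (chr19:1103982-1106791). It stood at 243, 309 and 251 CPM in replicates 1, 2 and 3 labelled MI-503, against 173, 222 and 207 CPM in those labelled DMSO. The libraries labelled MI-503 all lay above those labelled DMSO, but DMSO replicate 2 came close to MI-503 replicates 1 and 3. The means were 268 ± 35.8 and 201 ± 25.1 CPM (SD, n = 3 each), a 1.33-fold difference (log2 fold change 0.42, SE 0.16, adjusted p = 0.0478 by edgeR's quasi-likelihood test). This call lay close to the threshold and was lost in 11 of 16 alternative analyses, with log2 fold changes from 0.30 to 0.53 and adjusted p from 0.0307 to 0.173. It was lost on leaving out MI-503 replicate 2 or 3 (adjusted p = 0.173 and 0.0709 by edgeR) or any 1 of the DMSO libraries (adjusted p = 0.120, 0.0580 and 0.0609 by edgeR without replicates 1, 2 and 3).

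Among 11 annotated GPX4 transcripts, GPX4-210 took 69.2%, 75.9% and 73.6% of the gene's reads in MI-503 replicates 1, 2 and 3 and 83.6%, 81.7% and 78.2% in DMSO replicates 1, 2 and 3. Its level averaged 454 ± 75.2 TPM with the MI-503 label and 401 ± 28.0 TPM with the DMSO label, and the 2 groups overlapped. GPX4-201 stood at 91.0, 84.6 and 82.5 TPM with the MI-503 label and at 13.7, 37.1 and 47.1 TPM with the DMSO label. It made up 16.3%, 11.7% and 14.1% of the gene's TPM in MI-503 replicates 1, 2 and 3, and 2.84%, 6.90% and 9.59% in the DMSO replicates. The groups did not overlap for this transcript, which was picked out after its values were seen and was not tested. The transcripts share most of their exons, and how salmon divides reads among them is an estimate whose error is not in these values.

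**Figure D3:**
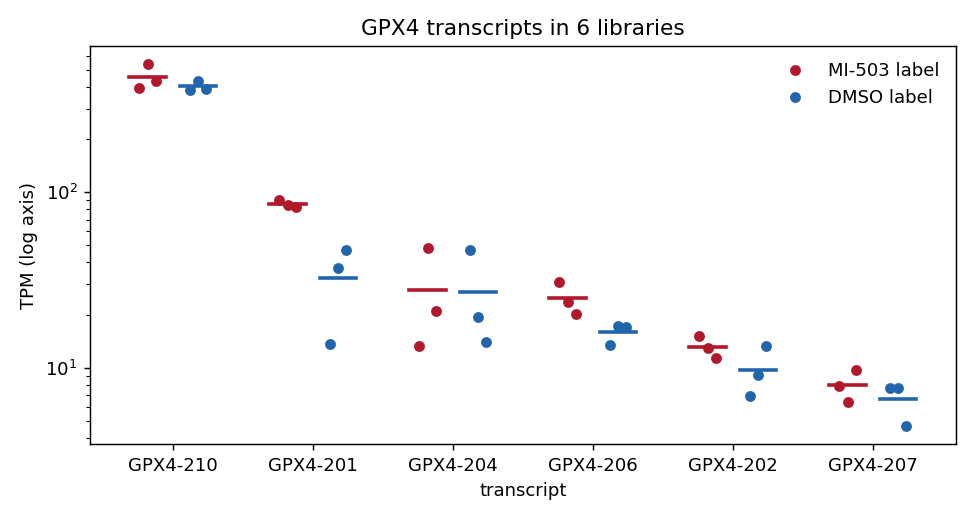
Level of the 6 most abundant GPX4 transcripts in TPM on a log axis, with a point for each library labelled MI-503 (red) or DMSO (blue) and a line at the mean of 3 libraries. The red and blue points overlap for GPX4-210 and stand apart for GPX4-201, at 82.5 to 91.0 TPM with the MI-503 label and 13.7 to 47.1 TPM with the DMSO label.

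GPX3, the secreted enzyme of blood plasma that is made mainly in the kidney, had reads almost only in the libraries labelled MI-503. Its gene lies on the plus strand of chromosome 5 (chr5:151020591-151028988). It had 1014, 1088 and 867 reads in replicates 1, 2 and 3 labelled MI-503, against 6, 6 and 16 reads in those labelled DMSO. In CPM these were 49.4, 56.9 and 51.5 with the MI-503 label and 0.271, 0.290 and 0.729 with the DMSO label. Each library labelled MI-503 was thus well above each labelled DMSO. The means were 52.6 ± 3.86 CPM with the MI-503 label and 0.430 ± 0.259 CPM with the DMSO label (SD, n = 3 each), and the fitted fold was 120.1 (log2 fold change 6.91, SE 0.33, adjusted p = 1.32e-07 by edgeR's quasi-likelihood test). GPX3 passed the filter on low counts only through the libraries labelled MI-503, so a gene with its few reads in the DMSO libraries could enter this test only by differing. The call held in 16 of 16 alternatives, with log2 fold changes of 6.66 to 7.68. GPX3-201, 1 of 9 annotated transcripts, took 99.5%, 98.9% and 99.0% of the reads with the MI-503 label. In the DMSO libraries, where reads were few, it took 0%, 66.7% and 0%.

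GPX8, a membrane-anchored peroxidase of the endoplasmic reticulum, was also higher. Its gene is on the plus strand of chromosome 5 (chr5:55160167-55167297). It had 1973, 1562 and 1195 reads in replicates 1, 2 and 3 labelled MI-503, and 413, 480 and 213 reads in those labelled DMSO. The corresponding levels were 96.2, 81.7 and 71.0 CPM, against 18.7, 23.2 and 9.71 CPM, with no overlap. The mean was 83.0 ± 12.6 CPM with the MI-503 label and 17.2 ± 6.88 CPM with the DMSO label (SD, n = 3 each), a 4.82-fold difference (log2 fold change 2.27, SE 0.29, adjusted p = 9.87e-05 by edgeR's quasi-likelihood test). The call held in 16 of 16 alternatives, with log2 fold changes of 1.99 to 2.54. GPX3 and GPX8 also passed a log2 fold change of 2, as 12.6% of all tested genes did in this direction, although GPX8 fell just under it (1.99) without DMSO replicate 3. GPX8-203 took 66.5%, 61.1% and 63.3% of the gene's reads in MI-503 replicates 1, 2 and 3 and 48.6%, 44.1% and 56.2% in the DMSO replicates. By TPM, which corrects for its length of 3731 bases, GPX8-208 was the main transcript, at 36.2 ± 4.83 TPM with the MI-503 label and 12.2 ± 6.07 TPM with the DMSO label, against 19.8 ± 3.27 and 3.30 ± 1.04 TPM for GPX8-203 (SD, n = 3 each). The gene overlaps CDC20B on the opposite strand without sharing an exon base with it.

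For all 3 of GPX3, GPX4 and GPX8 the libraries labelled MI-503 lay above those labelled DMSO without overlap, as they did for 34.7% of all genes tested, while 34% did not overlap in the other direction and 68.7% in either. In the same libraries the luminal breast and prostate marker sums given above moved in opposite directions, and their part in the levels of GPX3, GPX4 and GPX8 was not tested.

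GPX2, the form found chiefly in the lining of the gut, was near the limit of detection. Its gene lies on the minus strand of chromosome 14 (chr14:64939152-64942746). It had 0, 5 and 0 reads in replicates 1, 2 and 3 labelled MI-503, against 4, 14 and 24 reads in those labelled DMSO. In CPM, MI-503 replicate 2 at 0.262 exceeded DMSO replicate 1 at 0.181, so the groups overlapped. The means were 0.0872 ± 0.151 and 0.651 ± 0.457 CPM (SD, n = 3 each), and the ratio of the pooled levels was 0.136 (95% exact binomial interval 0.0421 to 0.344). GPX2 did not pass the filter on low counts. Tested without that filter, it had a log2 fold change of −2.76 (SE 0.94, adjusted p = 0.0126 by edgeR's quasi-likelihood test). It entered the filtered test on leaving out any library labelled MI-503 or DMSO replicate 1, with adjusted p = 0.126, 0.0102 and 0.121 by edgeR without MI-503 replicates 1, 2 and 3 and 0.0229 without DMSO replicate 1.

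GPX5, an enzyme of the epididymis, GPX6, known from the olfactory epithelium, and GPX7, which like GPX8 resides in the endoplasmic reticulum, had 0 reads in all 6 libraries. Their genes lie at chr6:28525881-28534955, chr6:28503296-28528215 and chr1:52602371-52609051, and those of GPX5 and GPX6 overlap on opposite strands. A count of 0 allowed a level of up to 0.0531 CPM with the MI-503 label and 0.0464 CPM with the DMSO label. No difference between the labels was detectable for them at this depth.

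Summed over the family, 672, 833 and 689 TPM were measured in replicates 1, 2 and 3 labelled MI-503, against 896, 1102 and 993 TPM in those labelled DMSO. The means were 731 ± 88.5 TPM with the MI-503 label and 997 ± 103 TPM with the DMSO label (SD, n = 3 each). On the CPM scale the sums were 389, 448 and 374 CPM with the MI-503 label and 377, 527 and 474 CPM with the DMSO label, and there the groups overlapped. Without GPX1, the TPM sum was the same 731 ± 88.5 TPM with the MI-503 label and 524 ± 36.7 TPM with the DMSO label. The higher levels of the other members thus came to less, in TPM, than the GPX1 level of the DMSO libraries. These sums contain the gene that chose the family and were not tested.

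The makeup of the sum differed between the labels. GPX4 supplied 83.0%, 86.6% and 85.2% of it in MI-503 replicates 1, 2 and 3 and 53.8%, 48.8% and 49.5% in DMSO replicates 1, 2 and 3. GPX1 supplied none with the MI-503 label and 44.05%, 48.6% and 49.3% with the DMSO label. GPX8 supplied 10.2%, 6.92% and 7.75% with the MI-503 label and 1.99%, 2.38% and 0.840% with the DMSO label. For GPX3 these shares were 6.83%, 6.45% and 7.08%, against 0.104%, 0.0863% and 0.166%.

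By TPM, the order of the members with the MI-503 label was GPX4, GPX8, GPX3 in all 3 libraries. GPX4 averaged 622 ± 87.2 TPM there, above GPX8 at 59.8 ± 7.68 TPM and GPX3 at 49.5 ± 3.98 TPM. The GPX8 and GPX3 levels overlapped between libraries, with GPX8 at 53.4 TPM in replicate 3 and GPX3 at 53.8 TPM in replicate 2. With the DMSO label the order was GPX4, GPX1, GPX8 in all 3 libraries, but GPX4 at 504 ± 29.7 TPM and GPX1 at 473 ± 72.2 TPM lay within their spread, and in replicate 2 they were at 537 and 536 TPM. GPX8 followed at 17.4 ± 8.92 TPM. GPX2 at 1.29 ± 0.836 TPM and GPX3 at 1.18 ± 0.408 TPM changed places between libraries.

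**Figure D4:**
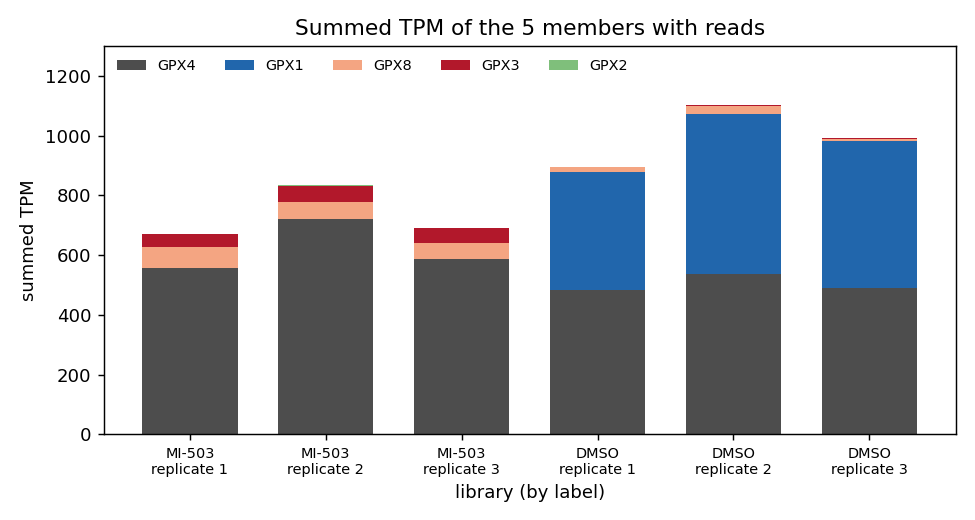
Summed TPM of the members with reads in each library, as stacked bars, with the 3 libraries labelled MI-503 on the left and the 3 labelled DMSO on the right. The GPX1 layer is absent from the MI-503 bars, which reach 672 to 833 TPM, and makes up 44.05% to 49.3% of the DMSO bars, which reach 896 to 1102 TPM.

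The promoters of GPX1, which had no reads with the MI-503 label, and of GPX3 and GPX8, which were higher with it, are shown so that these 3 members can be compared in sequence. Each is the window from 250 bases before to 50 after the gene's RefSeq start (GRCh38.p14), 5′ to 3′ on the gene's strand, with CpG dinucleotides in capitals, at chr3:49358304-49358603, chr5:151020341-151020640 and chr5:55159921-55160220. The RefSeq start can differ from the GENCODE bounds given above, and the GPX1 window lies wholly within those bounds.
GPX1: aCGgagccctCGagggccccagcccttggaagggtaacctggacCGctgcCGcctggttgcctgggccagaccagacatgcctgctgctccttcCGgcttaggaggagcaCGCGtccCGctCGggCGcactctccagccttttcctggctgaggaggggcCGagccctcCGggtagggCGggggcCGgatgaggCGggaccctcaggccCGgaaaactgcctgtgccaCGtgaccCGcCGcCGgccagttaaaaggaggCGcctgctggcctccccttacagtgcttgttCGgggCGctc
GPX3: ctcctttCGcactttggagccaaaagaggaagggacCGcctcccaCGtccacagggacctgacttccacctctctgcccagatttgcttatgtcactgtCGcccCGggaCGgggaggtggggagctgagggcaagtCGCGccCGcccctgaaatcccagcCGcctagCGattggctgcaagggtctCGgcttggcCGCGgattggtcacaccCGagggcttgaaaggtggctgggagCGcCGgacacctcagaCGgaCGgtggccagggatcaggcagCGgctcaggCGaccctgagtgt
GPX8: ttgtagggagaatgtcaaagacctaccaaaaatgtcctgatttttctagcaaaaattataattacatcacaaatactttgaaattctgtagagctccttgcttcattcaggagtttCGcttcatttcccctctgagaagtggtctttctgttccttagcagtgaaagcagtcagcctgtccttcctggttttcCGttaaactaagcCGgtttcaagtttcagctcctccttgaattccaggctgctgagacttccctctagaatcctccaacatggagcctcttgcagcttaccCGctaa
The windows of GPX1, GPX3 and GPX8 held 23, 21 and 4 CpG, and a relation of these numbers to the levels was not tested. The median over 35116 RefSeq promoters of this length was 14 CpG, with quartiles of 4 and 28. GPX4, at 39 to 43 CpG in its 3 windows, lay above the upper quartile, and GPX7 held 30, GPX6 and GPX2 held 4 each, and the GPX5 windows held 0 to 6. The core of the antioxidant response element, TGACNNNGC on either strand, was found in 1 member, GPX2, as TGACTTAGC, and in 13.3% of all promoters. The methylation and the factors bound at these promoters were not measured.

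Genes that supply glutathione and NADPH, the reductant that keeps glutathione reduced, moved in both directions. Of 21 measured and tested, 8 were higher, 10 lower and 3 without a call with the MI-503 label by edgeR's quasi-likelihood test, and their median log2 fold change was −0.21, against −0.00 over all genes tested. The counts in this and the following lists stand beside 31.7% higher and 31.2% lower over all genes tested. Some of their genes, such as ME1 and GSTA1, passed the filter only through the libraries of a single label. Such genes could enter the test only by differing. SLC7A11, the cystine importer, averaged 13.2 ± 5.43 CPM with the MI-503 label and 256 ± 174 CPM with the DMSO label (log2 fold change −4.27, adjusted p = 0.000135 by edgeR), with 423, 270 and 74.5 CPM in DMSO replicates 1, 2 and 3. GSR, which reduces oxidized glutathione, averaged 98.9 ± 10.0 and 369 ± 41.6 CPM (log2 fold change −1.90, adjusted p = 5.62e-06 by edgeR). ME1, an NADPH-producing malic enzyme, had 2 reads in all with the MI-503 label and averaged 102 ± 23.2 CPM with the DMSO label, and the ratio of the pooled levels was 0.000346 (95% interval 4.19e-05 to 0.00125). GCLC, the catalytic subunit of glutamate-cysteine ligase, was higher, at 44.4 ± 2.20 and 26.3 ± 2.82 CPM (log2 fold change 0.75). NNT, the mitochondrial transhydrogenase, averaged 181 ± 5.34 and 0.521 ± 0.419 CPM, and IDH2, the mitochondrial isocitrate dehydrogenase, averaged 513 ± 51.2 and 184 ± 15.1 CPM.

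Of the genes needed to insert selenocysteine, 11 of 12 were tested, and 2 were higher, 4 lower and 5 without a call, with a median log2 fold change of −0.21. SECISBP2, which binds the element that recodes TGA, averaged 65.1 ± 5.50 CPM with the MI-503 label and 32.8 ± 4.26 CPM with the DMSO label (log2 fold change 0.99, adjusted p = 0.000486 by edgeR), and SEPHS2, which makes selenophosphate, was also higher (log2 fold change 0.74). EEFSEC, the elongation factor for selenocysteine, and SCLY, which recycles selenium from it, were lower, by log2 fold changes of −1.71 and −2.89.

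Selenoproteins outside the family were mixed as well. Of 19, 17 were tested, and 4 were higher, 8 lower and 5 without a call, with a median log2 fold change of −0.33. SELENOP, the selenium carrier of plasma, averaged 209.9 ± 10.6 CPM with the MI-503 label and 66.6 ± 7.96 CPM with the DMSO label, and SELENOT, a protein of the endoplasmic reticulum, was higher too (log2 fold changes 1.66 and 1.10). The mitochondrial thioredoxin reductase gene TXNRD2 and SELENOI, which acts in phospholipid synthesis, were lower, by −1.75 and −1.82. TXNRD1, the cytosolic thioredoxin reductase, averaged 361 ± 16.3 and 504 ± 38.8 CPM (log2 fold change −0.48, adjusted p = 0.0141 by edgeR), a call lost without MI-503 replicate 1, 2 or 3 (adjusted p = 0.0530, 0.0540 and 0.0810 by edgeR).

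Of 13 other enzymes that remove peroxide or superoxide, all tested, 3 were higher, 6 lower and 4 without a call, with a median log2 fold change of −0.24. The 6 lower calls became 3 without MI-503 replicate 1 or without MI-503 replicate 3. CAT, which encodes catalase, averaged 139 ± 10.4 CPM with the MI-503 label and 119 ± 26.8 CPM with the DMSO label (log2 fold change 0.22, adjusted p = 0.316 by edgeR), and the groups overlapped. PRDX3, the mitochondrial peroxiredoxin, was lower, at 121 ± 6.18 and 313 ± 53.9 CPM, as was PRDX2 at 226 ± 49.9 and 442 ± 33.6 CPM. PRDX5 was higher, at 207 ± 5.23 and 104 ± 21.2 CPM, and SOD3, the extracellular superoxide dismutase, averaged 90.0 ± 4.00 and 3.66 ± 0.191 CPM (log2 fold change 4.62, adjusted p = 3.69e-08 by edgeR).

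Of 24 glutathione transferases and glutaredoxins, 20 were tested, and 9 were higher, 6 lower and 5 without a call, with a median log2 fold change of −0.10. GSTM2 averaged 85.9 ± 35.5 CPM with the MI-503 label and had 3 reads in all with the DMSO label, a pooled ratio of 1902 (95% interval 650.4 to 9225). PTGES, a prostaglandin E synthase, averaged 60.4 ± 11.5 CPM with the MI-503 label and 0.653 ± 0.232 CPM with the DMSO label. GSTA1 had no reads with the MI-503 label and 14.7 ± 4.11 CPM with the DMSO label, at least 275-fold lower, and MGST2 averaged 3.52 ± 1.05 and 51.2 ± 6.05 CPM. GSTP1 was near 0 under both labels, at 2, 4 and 5 reads with the MI-503 label and 0, 1 and 0 reads with the DMSO label, and was not tested.

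Among 16 regulators and targets of NRF2, the transcription factor of the antioxidant response, 13 were tested, and 7 were higher, 1 lower and 5 without a call, with a median log2 fold change of 0.84. The list leaves out NRF2 targets that are counted in other lists here, so it does not stand for all of them. Among the glutathione supply genes and selenoproteins named above, the targets SLC7A11, GSR, ME1 and TXNRD1 were lower and GCLC was higher. NFE2L2, which encodes NRF2, averaged 70.6 ± 8.0 CPM with the MI-503 label and 69.2 ± 10.5 CPM with the DMSO label (log2 fold change 0.03, adjusted p = 0.893 by edgeR). KEAP1, its inhibitor, averaged 80.6 ± 4.37 and 112 ± 6.87 CPM (log2 fold change −0.48, adjusted p = 0.0127 by edgeR), a call lost without MI-503 replicate 1 or 2 (adjusted p = 0.0597 and 0.0637 by edgeR) and without the filter (adjusted p = 0.0536 by edgeR). OSGIN1 averaged 125 ± 23.1 and 9.70 ± 3.60 CPM (log2 fold change 3.68, adjusted p = 2.74e-06 by edgeR), and SQSTM1, an autophagy receptor, averaged 381 ± 37.8 and 209 ± 6.15 CPM.

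Among 22 genes of ferroptosis, the death process that GPX4 restrains, 18 were tested, and 9 were higher, 5 lower and 4 without a call, with a median log2 fold change of 0.35. ACSL4, which loads polyunsaturated fatty acids for phospholipid synthesis, averaged 9.25 ± 0.513 CPM with the MI-503 label and 0.480 ± 0.0630 CPM with the DMSO label (log2 fold change 4.25, adjusted p = 2.98e-06 by edgeR). It had 11, 11 and 9 reads in DMSO replicates 1, 2 and 3, near the filter on low counts. It passed that filter through the libraries labelled MI-503, so its call partly reflects the filter. LPCAT3, which places polyunsaturated fatty acids in phospholipids, was lower, at 10.3 ± 1.30 and 89.6 ± 20.04 CPM. ALOX15, a lipoxygenase, was also lower, at 9.72 ± 2.04 and 149 ± 11.6 CPM. SLC40A1, the iron exporter ferroportin, averaged 297 ± 43.6 CPM with the MI-503 label and had 2 reads in all with the DMSO label, a pooled ratio of 9544 (95% interval 2642 to 78814). The acyltransferase gene MBOAT1 averaged 71.5 ± 11.5 CPM with the MI-503 label and had 1 read in all with the DMSO label.

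Of 11 genes of oxidative folding in the endoplasmic reticulum, the compartment of GPX7 and GPX8, all tested, 5 were higher, 4 lower and 2 without a call, with a median log2 fold change of 0.27. PDIA3, a disulfide isomerase, averaged 877 ± 23.1 CPM with the MI-503 label and 453 ± 83.3 CPM with the DMSO label, and the oxidase gene ERO1A averaged 128 ± 13.2 and 73.4 ± 9.73 CPM. PDIA6 was lower, at 201 ± 16.2 and 377 ± 3.07 CPM, as was the sulfhydryl oxidase gene QSOX2 at 25.9 ± 2.38 and 65.2 ± 11.4 CPM. Each of the 8 lists held genes called in both directions. Genes without reads in 1 group were also set at their bound, which left the median of each of these 8 lists where it was. Several lists held no such gene, and elsewhere the bounds stayed on the same side of the median. The medians could therefore not move, and nothing is drawn from this.

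**Figure D5:**
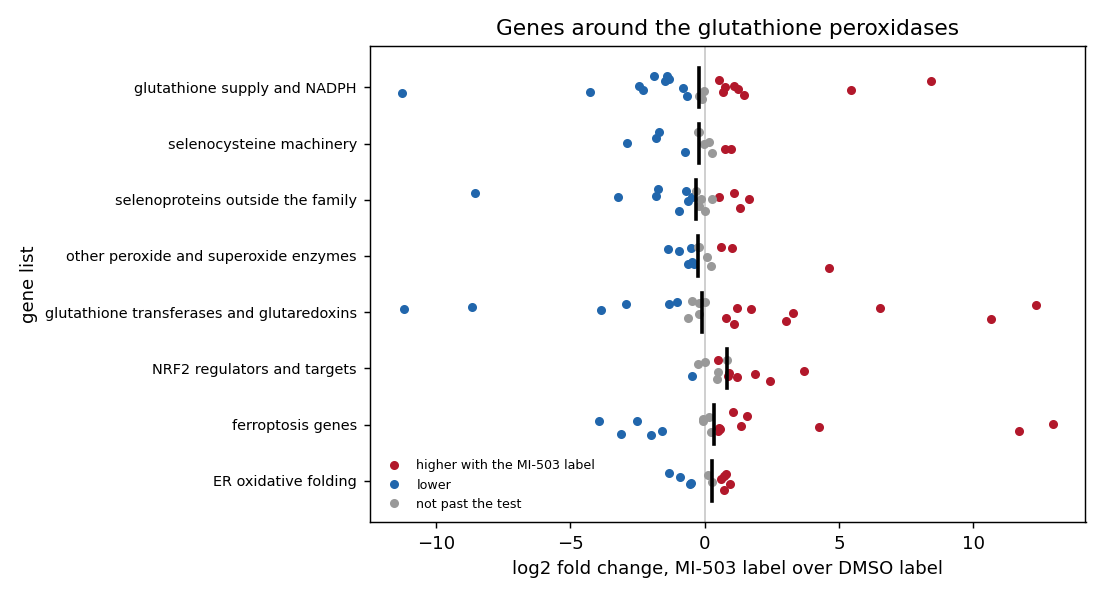
Log2 fold change, MI-503 label over DMSO label, of each tested gene in 8 lists around the glutathione peroxidases, with red points called higher, blue points called lower and grey points without a call by edgeR's quasi-likelihood test, and a black bar at each list's median. Medians lie between −0.33 and 0.84, and points beyond 8 on either side belong to genes with few or no reads in 1 group, whose fitted value depends on the prior count.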

How the data were processed

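RNA of T47D cells was isolated with the RNeasy kit with on-column DNase digestion, and libraries were made and sequenced by Novogene. Transcripts were quantified by the authors with salmon on Illumina DRAGEN, with a table for each library. Tests used the estimated counts of each transcript, which the authors deposited without normalization. The deposited tables also hold TPM, which salmon computed from these counts and effective transcript lengths within each library, and which served here for levels between genes and transcripts. The submitters' processing notes name the builds GRCh38.p13 and hg38. For salmon's version, the annotation release and the strand setting, nothing is given in the sources used here.

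Versions were stripped from transcript identifiers and GENCODE release 44 assigned 229321 of 232117 transcripts (98.8%), holding 99.2% to 99.3% of each library's reads, to 61279 genes. Counts were summed per gene and rounded. Genes were filtered with filterByExpr, scaled by TMM (factors 0.934 to 1.053) and tested with edgeR 4.0.16 (R 4.3.3), by its quasi-likelihood test with Benjamini-Hochberg adjustment over 16442 genes and a threshold of 0.05. P-values measure the spread among these 3 libraries per label. Libraries of a label differed beyond sampling noise and none were duplicates. Groups without reads were bounded with 3 reads over the group, and intervals are at the 95% level, and both cover counting error alone, as reads carried no molecular identifiers. The test was checked on simulated counts. DESeq2 1.42.0, which the study used, limma voom (limma 3.58.1), other scalings and filters, protein-coding transcripts alone, removal of mitochondrial genes, a replicate block and leaving out each library were the alternatives.

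The members and gene lists were chosen with earlier results of these data known. Genes named were all 8 members, in each list the 2 higher and the 2 lower genes of smallest adjusted p, 10 genes of glutathione, selenium and redox metabolism whatever their values (SLC7A11, GCLC, GSR, TXNRD1, CAT, NFE2L2, KEAP1, ACSL4, SECISBP2 and GSTP1), protein-coding genes within 100 kb of GPX1, ESR1, PGR, KLK3, KMT2A and MEN1, and the 5 protein-coding genes closest to GPX1 over the 6 libraries. Markers without reads are named beside their lists. A further gene that the rule takes is not reported here. Protein sequences of the members were not used here.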

Additional observations from a re-analysis of the deposited data

How the results depend on the processing

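The 3 higher calls outside GPX1 came with every alternative except where GPX4 was lost, and no direction reversed. GPX4 missed the threshold with RLE scaling (log2 fold change 0.41), with at least 1 CPM in 3 libraries (0.40), with library totals (0.30), with upper-quartile scaling (0.32), with protein-coding transcripts alone (0.40) and without mitochondrial genes (0.37), and leaving out 1 library gave 0.32 to 0.53. Library totals and upper-quartile scaling moved the median over all genes by −0.12 and −0.10. GPX3 ranged from 6.66 to 7.52 and GPX8 from 1.99 to 2.54 without 1 library. GPX2 entered the test without the filter (−2.76) and, on leaving out 1 library, ranged from −6.75 to −2.17, so the count of lower members was 1 without the filter and 0 to 1 without 1 library, and the count of higher members was 2 to 3 without 1 library. The value of −6.75 came without MI-503 replicate 2, the only library of that label with GPX2 reads. It is a fitted fold against a group at 0 and gives no bound. NRF2 regulators and targets had 11 higher without the filter and 0 to 1 lower without 1 library, and other peroxide and superoxide enzymes had 3 to 6 lower. Mean GPX1 with the DMSO label was 218 to 266 CPM without 1 library. The cause of these moves was not tested.

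Between same-numbered libraries, deviations from the group means had correlations of −0.06, 0.13 and −0.08 for replicates 1, 2 and 3. Differently numbered libraries ranged from −0.18 to 0.17. With 3 libraries per label, these values cannot decide whether the replicates were paired. With the replicate number as a block, GPX3 had a log2 fold change of 6.94, GPX4 0.42 (adjusted p = 0.0307 by edgeR) and GPX8 2.34, and 5071 genes were higher and 4913 lower, against 5208 and 5130 without the block. Over 43 companion and marker genes and 16 alternatives, 682 of 688 values kept their call and 6 lost it, those of TXNRD1 and KEAP1. GPX5, GPX6 and GPX7, and GPX1 with the MI-503 label, had no reads, and GPX2 had few. For these, depth sets how low a level can be bounded, and why the counts were so low was not tested.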

Other observations

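Genes around GPX8 and GPX3 on chromosome 5 that passed the filter were called higher with the MI-503 label, as 31.7% of all genes tested were. They were looked at after their values were seen, and no set was tested. Of 5 protein-coding genes within 100 kb of GPX8, 4 were tested and all 4 were called higher by edgeR's quasi-likelihood test. CCNO, which encodes a cyclin needed to form multiple cilia, had 2672, 1660 and 1187 reads in replicates 1, 2 and 3 labelled MI-503, against 5, 1 and 2 reads in those labelled DMSO. MCIDAS, a regulator of multiciliated cell differentiation, had 196, 156 and 97 reads with the MI-503 label and 13, 5 and 1 reads with the DMSO label. CDC20B, which overlaps GPX8 on the opposite strand, had 192, 210 and 400 reads with the MI-503 label and none with the DMSO label. CCNO, MCIDAS and CDC20B passed the filter on low counts only through the libraries labelled MI-503. With so few reads in the DMSO libraries, they could enter this test only by being higher. The helicase gene DHX29 differed least, at 61.1 ± 2.36 CPM with the MI-503 label and 45.1 ± 2.31 CPM with the DMSO label (SD, n = 3 each, log2 fold change 0.44, adjusted p = 0.0219 by edgeR). The remaining gene, the protease gene GZMA, had no reads in any library.

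Beside GPX3, TNIP1, an inhibitor of NF-κB signalling whose gene lies 957 bases away, averaged 110.5 ± 9.05 CPM with the MI-503 label and 79.7 ± 7.45 CPM with the DMSO label (SD, n = 3 each, log2 fold change 0.47, adjusted p = 0.0182 by edgeR). ANXA6, a membrane-binding annexin, averaged 399 ± 74.4 CPM with the MI-503 label and 104 ± 6.02 CPM with the DMSO label (SD, n = 3 each, log2 fold change 1.94, adjusted p = 9.31e-06 by edgeR). Around GPX4, 7 genes were tested, of which 1 was higher, 2 were lower and 4 had no call. Around GPX2, 6 were tested, of which 3 were higher and 3 had no call. Around GPX7, 2 genes were tested and both were lower, as 31.2% of all genes tested were. For the overlapping genes GPX5 and GPX6, the tested neighbours were the same 2, ZSCAN23 and SCAND3, both called lower. ZSCAN23 had 44, 18 and 36 reads and SCAND3 122, 121 and 99 reads in replicates 1, 2 and 3 labelled DMSO. Neither had reads with the MI-503 label, and both passed the filter on low counts only through the libraries labelled DMSO. Such genes entered this test only by being lower, and nothing is drawn from their calls.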
